A study of Mus musculus with 8 samples.

Results

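Macrophages (Mϕ) break down engulfed material in lysosomes, acidic organelles filled by hydrolases. The genes described here are 49 mouse genes of that organelle out of 55359 genes listed for total RNA-seq of bone marrow-derived Mϕ (BMDMs). Their choice was by name from textbook function, with earlier results of these data known. They comprise 10 glycosidases, 4 sulfatases, 8 lipid hydrolases, saposins and sterol carriers, 5 other soluble proteins, 9 membrane proteins, 10 genes of the vacuolar proton pump (V-ATPase) and 3 transcription factors of the MiT/TFE family. All 49 were found by symbol, and all 49 passed the filter on low values (a mean of at least 10 normalized counts over the 8 samples), which 16309 genes passed. The lowest number of reads behind any value of a member was 14, for Sgsh in LPS replicate 2.

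BMDMs came from adult male and female wildtype C57BL/6 mice. They had been differentiated with M-CSF (20 ng/mL) and GM-CSF (20 ng/mL), for 7 days by the labels and 6 days by the methods. All groups thus share exposure to both growth factors. The 4 groups had 2 samples each. Ctrl was left untreated, LPS received LPS (100 ng/mL) and murine IFNγ (100 U/mL) for 6 h, Eff was co-cultured for 16 h with apoptotic NIH-3T3 CA cells, and LPSEff received the co-culture, a wash and then the same LPS/IFNγ stimulation. NIH-3T3 CA is a single clone of a mouse fibroblast line that dies when a dimerizer (10 nM) activates its engineered caspase-8, and 5 of these cells were added per Mϕ. By the methods, the dimerizer stayed in the co-culture, so that Mϕ of Eff and LPSEff were exposed to it. None is given for Ctrl and LPS, and an effect of the dimerizer cannot be told apart from one of efferocytosis. CD45+ cells were then isolated with magnetic beads. Whether the 2 samples of a group came from different mice is not given in the sources used here. The p-values thus set a difference against the spread between these samples, which may be technical.

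The recovered depth was 3481288 to 12020918 reads per sample, at which 3 reads correspond to 1.73 to 5.71 normalized counts. All 12 Mϕ markers were detected, with a summed level of 116729 to 173973 normalized counts in every sample, 5 T and B cell markers summed to at most 22.0, and 7 neutrophil markers to 643 to 2176. Summed levels of 6 dendritic cell markers were 1312 to 2576 in Ctrl and Eff and 6483 to 16025 in LPS and LPSEff, among which Ccr7 and Xcr1 were called in LPS vs Ctrl and Ccr7 in LPSEff vs Eff. The 8 LPS/IFNγ response genes tested as a check of the labels all rose in both stimulated groups. Transcripts of 18 fibroblast markers (mostly collagens and other matrix genes) were found in all groups, with summed levels of 2454 to 2761 in Ctrl, 5237 to 5316 in LPS, 5346 to 9063 in Eff and 15649 to 15800 in LPSEff. Ctrl and LPS received no NIH-3T3 CA cells, and 4 of the 16 fibroblast markers tested were called higher in LPS vs Ctrl. Fibroblasts have lysosomes as well, and in such bulk RNA a smaller share of a cell type and less RNA per cell cannot be told apart.

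Lysosomal glycosidases and sulfatases strip sugars and sulfate groups from glycoproteins, glycolipids and glycosaminoglycans, while acid lipases, ceramidase and sphingomyelinase, helped by saposins, take apart membrane lipids. The V-ATPase acidifies the lumen with a membrane sector (V0) through which protons pass and a cytosolic sector (V1) that hydrolyses ATP. TFEB, TFE3 and MITF are related transcription factors that bind short E-box sequences, many of them extended to the so-called CLEAR element, near the start of lysosomal genes, and that move to the nucleus when nutrient signalling at the lysosome is low. In Mϕ, this system degrades apoptotic cells and also microbes.

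Sites from 6 members are shown because they carry these E-box letters and because the members differed in how they moved. Each is 30 bases around the site nearest the start, from RefSeq promoter windows (250 bases before to 50 after the start, GRCm38.p6), written 5′ to 3′ on the gene's strand and placed on GRCm39 by an exact match of the 250 bases. Capitals mark CACGTG, widened to TCACGTGA or GTCACGTGAC where those letters were present.
Gla (chrX:133501931-133501960, minus strand, GRCm39): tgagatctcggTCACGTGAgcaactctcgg
Cln3 (chr7:126182512-126182541, minus strand, GRCm39): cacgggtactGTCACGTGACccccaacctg
Mcoln1 (chr8:3550462-3550491, plus strand, GRCm39): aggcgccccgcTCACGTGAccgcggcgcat
Atp6v1a (chr16:43959736-43959765, minus strand, GRCm39): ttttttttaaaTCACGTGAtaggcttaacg
Lamp1 (chr8:13209127-13209156, plus strand, GRCm39): gactggCACGTGaccacatCACGTGcggaa
Sgsh (chr11:119246348-119246377, minus strand, GRCm39): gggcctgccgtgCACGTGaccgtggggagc

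The letters CACGTG were present in the windows of 11 of 43 members with a window (25.6%), compared with 8.09% of 27025 genes. The core TCACGTGA, which contains CACGTG, was found in 5 of 43 (11.6%, against 1.12% of all genes), namely Atp6v0d1, Atp6v1a, Cln3, Gla and Mcoln1. The full GTCACGTGAC, which contains both, was present in Cln3 alone among the members (0.370% of all genes). All of these read the same on both strands. The letters TCATGTG, searched on both strands and bound by MITF in pigment cells, were found in 6 of 43 (14.0%, against 4.31%). Lamp1 carried CACGTG 4 times and Gla carried TCACGTGA 2 times. By GENCODE annotation, the sites of Mcoln1, Atp6v1a, Lamp1 and Sgsh lie in or reach into the first exon of the gene's canonical transcript. That of Cln3 lies in an exon of other Cln3 transcripts, and that of Gla lies before the gene in an exon of Hnrnph2 on the other strand. The printed stretches of Atp6v1a, Lamp1 and Sgsh also overlap exons of genes on the other strand, namely Naa50, Gm64292 and Slc26a11. Such matches describe letters only, and whether any factor was bound was not measured here.

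Members differed widely in level. Psap, which encodes the precursor of 4 saposins, had the highest level per transcript length, with 31851 normalized counts per kb of its canonical transcript in Ctrl and 23060.0 in LPS (means, n = 2). On the same scale, the membrane glycoproteins Lamp1 (4918 in Ctrl) and Lamp2 (2235), the granulin precursor Grn (2119) and the beta-glucuronidase gene Gusb (2070.1) followed. The lowest 5 in Ctrl were the 4 sulfatase genes and the iduronidase gene Idua, with 58.7 per kb for Arsa, 58.4 for Idua, 57.7 for Ids, 53.7 for Arsb and 33.6 for Sgsh. Neighbours in this order such as Arsa, Idua and Ids lay closer together than the replicates of a group. Psap alone took 0.664% and 0.700% of all normalized counts in LPS, compared with 1.06% and 1.43% in Ctrl, and it took 0.904% and 0.995% in LPSEff, compared with 1.03% and 1.33% in Eff. The 49 members together took 2.49% to 2.81% in Ctrl, 1.58% to 1.66% in LPS, 2.43% to 2.63% in Eff and 1.92% to 1.98% in LPSEff. Such shares also depend on the totals, which were 8.47e+06 to 9.49e+06 for stimulated samples, against 6.59e+06 to 6.95e+06 for unstimulated ones. The members' summed counts for LPS (133500 to 157930) lay below those for Ctrl (172790 to 186290). For LPSEff (171200 to 188050) they overlapped those for Eff (167300 to 173200). Without Psap, the sums for LPS (74218 to 94954) also overlapped those for Ctrl (91276 to 98930).

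**Figure D1:**
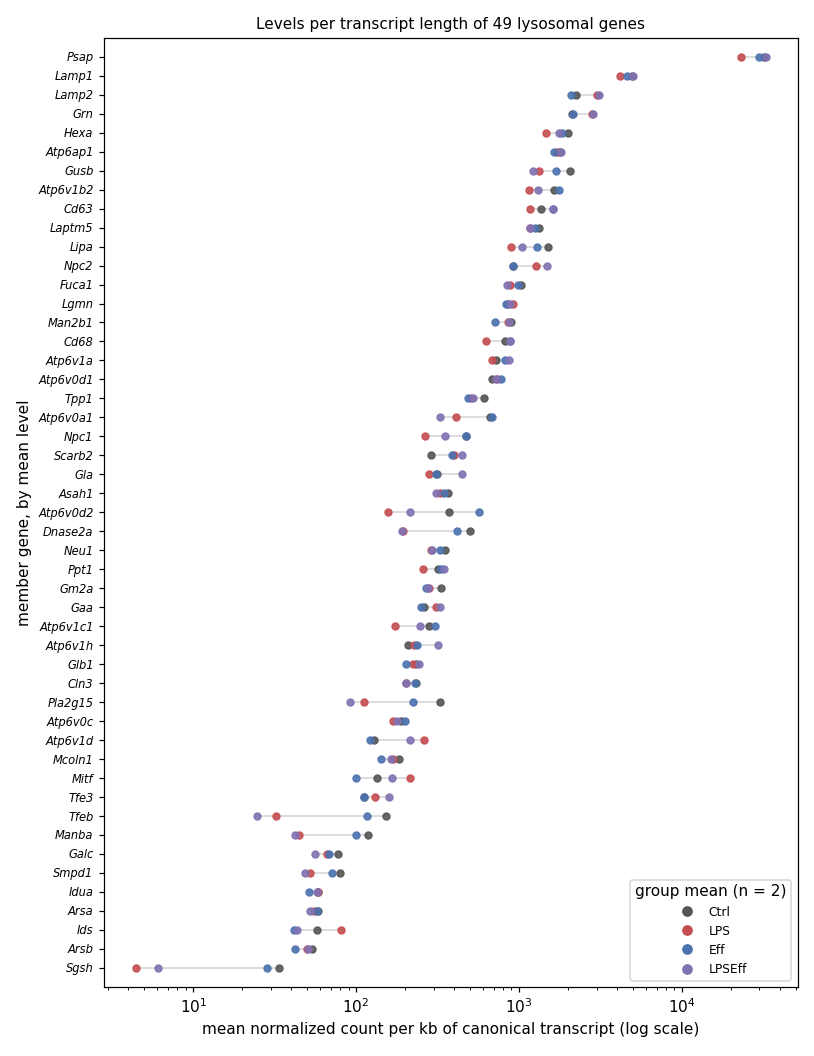
Levels of the 49 lysosomal genes in normalized counts per kb of canonical transcript (x axis, log scale), 1 row per gene ordered by mean level, with points for the means of the 4 groups (n = 2 each). Psap lies above all others, at 23060 to 32920 per kb, and Sgsh lies lowest, with its LPS and LPSEff points far to the left of Ctrl and Eff.

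For the response of naïve Mϕ, LPS was compared with Ctrl. Of the 49 members, 7 passed the test (14.3%), all of them lower, while 24% of all tested genes passed (12.4% higher and 11.6% lower). The 7 were Sgsh, Tfeb, Pla2g15, Manba, Dnase2a, Npc1 and Atp6v1c1. The median log2 fold change of the members was -0.21 (all genes, -0.01), 36 of 49 were below 0, and 34 stayed within 0.5 of 0 on the log2 scale. The test was limma on log2(normalized count + 1) with Benjamini-Hochberg adjustment over all tested genes, and a log2 fold change is on this scale. With the replicate number as a block, 19 members passed (5 higher and 14 lower), with 41.2% of all genes (20.5% higher and 20.7% lower). The samples of LPS and Ctrl did not overlap for 27 members (55.1%, 7 above and 20 below), against 59.3% of all genes (28.4% above and 30.9% below). Within replicate number 1 the members' median difference was -0.32 and within number 2 it was -0.05. Without Ctrl replicate 2, 4 members passed, and the adjusted p was 0.0523 for Manba, 0.0553 for Npc1 and 0.103 for Atp6v1c1. The call of Atp6v1c1 was also lost without Ctrl replicate 1 (adjusted p = 0.0957), without LPS replicate 1 (0.0959), with all genes of a mean above 0 (0.0632) and in a fit of LPS and Ctrl alone (0.0689).

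In LPSEff vs Eff, the response of efferocytic Mϕ, 7 members passed (14.3%, 1 higher and 6 lower), against 19.7% of all genes (10.7% higher and 8.95% lower). Lower were Tfeb, Sgsh, Pla2g15, Manba, Dnase2a and Atp6v0a1, and higher was Npc2. Here the members' median was 0.00 (all genes, 0.01), with 25 above 0. Sgsh, Tfeb, Pla2g15, Manba and Dnase2a were thus called in both contexts. With the replicate block, 19 members passed (8 higher and 11 lower), with 37% of all genes (19% higher and 18% lower), and 15 of them were also called in LPS vs Ctrl with the block. The samples of LPSEff and Eff did not overlap for 24 of 49 members (12 above and 12 below), against 59.9% of all genes (29.5% above and 30.4% below). The members' median difference was -0.14 within replicate number 1 and 0.08 within number 2. Leaving out a library of this contrast left 2 calls without Eff replicate 1, 3 without Eff replicate 2, 2 without LPSEff replicate 1 and 4 without LPSEff replicate 2, and Tfeb and Sgsh were among them each time. The adjusted p of the other 5 then reached 0.0859 for Pla2g15, 0.0903 for Manba, 0.0911 for Dnase2a, 0.155 for Atp6v0a1 and 0.199 for Npc2.

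The normalized counts sum to more in the stimulated groups than in the others. When the samples were rescaled to equal totals, the median of all genes moved by -0.39 in LPS vs Ctrl and by -0.44 in LPSEff vs Eff (log2), and the share of higher genes among all calls went from 51.5% to 24.8% and from 54.6% to 21.8%. The members called were then 21 (all lower) and 14 (all lower). Of the 16309 tested genes, 5737 (4316 lower) and 5578 (4362 lower) were called. Members called lower in these contrasts kept that direction under both scalings, whereas no member was called higher under equal totals, with or without the block. A call of a member as higher under LPS/IFNγ given below thus holds for the deposited scaling alone, although the values of Atp6v1d (0.57 and 0.35), Mitf (0.30 and 0.27), Npc2 (0.05 and 0.24) and Lamp2 (0.03 and 0.12) were still above 0 under equal totals.

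**Figure D2:**
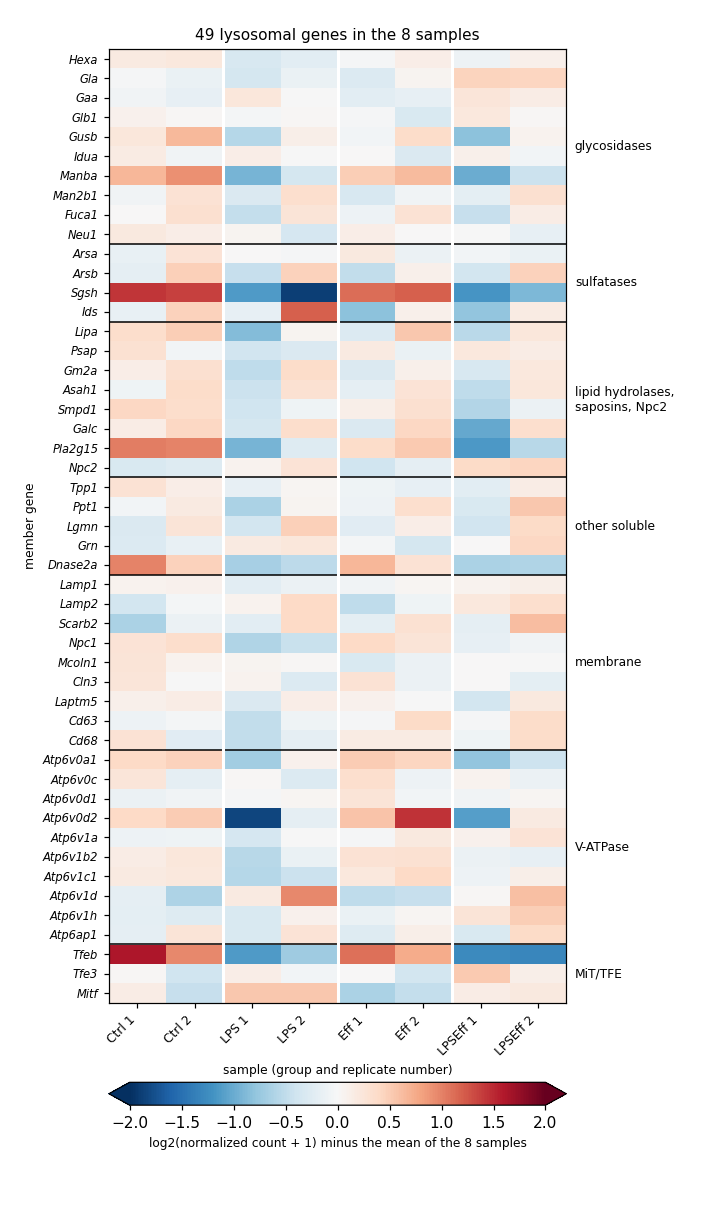
Heat map of the 49 lysosomal genes (rows, by role) in the 8 samples (columns), coloured by log2(normalized count + 1) minus the gene's mean over the samples. Sgsh, Manba, Pla2g15, Dnase2a and Tfeb are blue in all 4 stimulated samples and red in the other 4, while most other rows are pale, and several (Ids, Galc, Arsb, Lgmn) follow the replicate number.

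Sgsh encodes sulfamidase, which removes sulfate from heparan sulfate. Its normalized counts were 150.4 and 143 for Ctrl, 24.6 and 14.2 for LPS, 121 and 127 for Eff, and 23.8 and 29.2 for LPSEff. Both stimulated groups lay far below both unstimulated ones, by a log2 fold change of -2.91 ± 0.32 (standard error, SE, with adjusted p = 5.94e-04) in LPS vs Ctrl and -2.19 ± 0.32 (adjusted p = 0.00255) in LPSEff vs Eff. The gene lies on the minus strand at chr11:119234251-119246374. Of the 6 genes whose sites are printed above, it is the only one called without the block. The other 3 sulfatases did not pass. Arsa (sulfatide) had log2 fold changes of -0.06 and -0.14, Arsb (dermatan sulfate) had -0.15 and 0.23, and Ids (iduronate sulfate) had 0.37 and 0.04, in the same order of contrasts.

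Among the 10 glycosidases, Manba passed in both contexts and no other did. Manba encodes beta-mannosidase, which cleaves the last mannose of N-glycan breakdown, and had normalized counts of 606 and 723 for Ctrl, 200.5 and 301 for LPS, 537 and 595 for Eff, and 192 and 286 for LPSEff. The log2 fold change was -1.43 ± 0.27 (adjusted p = 0.00695) in naïve and -1.27 ± 0.27 (adjusted p = 0.0132) in efferocytic Mϕ, and it lies at chr3:135191125-135278908 (plus strand). Its neighbour in the pathway, the alpha-mannosidase gene Man2b1, had -0.08 and 0.26 and did not pass. The beta-glucuronidase gene Gusb had -0.66 and -0.53 and passed in both contrasts with the block but not without it (adjusted p = 0.00584 and 0.0211). With the block, Hexa was also lower in LPS vs Ctrl (-0.46, adjusted p = 0.0167), and the alpha-glucosidase gene Gaa and the alpha-galactosidase gene Gla were higher in LPSEff vs Eff (0.38 and 0.55, adjusted p = 0.0447 and 0.0126). The remaining 4 glycosidases, Glb1, Idua, Fuca1 and Neu1, had log2 fold changes between -0.30 and 0.28 in both contrasts and did not pass in either fit.

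Of the 8 lipid-handling members, Pla2g15 fell and Npc2 rose. Pla2g15 encodes the lysosomal phospholipase A2 and had normalized counts of 1039.7 and 1018 for Ctrl, 270.3 and 428 for LPS, 664 and 737 for Eff, and 230.4 and 348 for LPSEff. All 4 stimulated samples were below all 4 others, and the log2 fold change was -1.59 ± 0.27 (adjusted p = 0.00453) in LPS vs Ctrl and -1.30 ± 0.27 (adjusted p = 0.0125) in LPSEff vs Eff, for a gene on the plus strand at chr8:106876653-106891733. Npc2, the soluble carrier that hands cholesterol to NPC1, had 3619.8 and 3751 for Ctrl, 4694 and 5436 for LPS, 3384 and 3959.8 for Eff, and 5835 and 6013 for LPSEff. It was higher by 0.69 ± 0.18 (adjusted p = 0.0316) in LPSEff vs Eff and by 0.45 ± 0.18 in LPS vs Ctrl, where it passed with the block but not without it (adjusted p = 0.114 without and 0.0209 with it). The call of Npc2 was lost without any library of LPSEff or Eff (adjusted p 0.0830 to 0.199) and without either Ctrl library (0.0555 and 0.0558). It was also lost with all genes of a mean above 0 (0.0779) and in a fit of LPSEff and Eff alone (0.0572), and under equal totals its log2 fold change in LPSEff vs Eff was 0.24 (adjusted p = 0.270). The acid sphingomyelinase gene Smpd1 was lower in both contrasts (-0.62 and -0.57) and the acid lipase gene Lipa in LPS vs Ctrl (-0.83), each with the block but not without it (adjusted p = 0.0226, 0.0374 and 0.00437). The ceramidase gene Asah1, the galactosylceramidase gene Galc and the activator gene Gm2a lay between -0.40 and 0.04 in both contrasts and did not pass in either fit.

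Psap itself did not pass in any contrast. Its normalized counts were 95012 and 73862 for Ctrl, 59284 and 62979.6 for LPS, 87554 and 70580.3 for Eff, and 88781 and 85762 for LPSEff, so that both LPS samples lay below every other sample, while the LPSEff samples lay within the range of Ctrl. The log2 fold change was -0.46 ± 0.28 (adjusted p = 0.300) in LPS vs Ctrl and 0.15 ± 0.28 (adjusted p = 0.773) in LPSEff vs Eff.

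Dnase2a, the acid nuclease that digests DNA of engulfed cells, was the called member among the other soluble proteins. Its normalized counts were 1150.1 and 795 for Ctrl, 363 and 398 for LPS, 916 and 706 for Eff, and 371 and 377 for LPSEff. All 4 stimulated samples were below all 4 others, with a log2 fold change of -1.33 ± 0.23 (adjusted p = 0.00454) in naïve and -1.10 ± 0.23 (adjusted p = 0.0117) in efferocytic Mϕ. It lies at chr8:85635189-85649544 (plus strand). Grn had 4729.9 and 5189 for Ctrl, 6475 and 6674 for LPS, 5557 and 4488 for Eff, and 5759.7 and 7606 for LPSEff, with stimulated samples above the unstimulated ones in both contexts and log2 fold changes of 0.41 ± 0.21 and 0.41 ± 0.21 that did not pass (adjusted p = 0.215 and 0.235). The peptidase genes Tpp1 and Lgmn and the thioesterase gene Ppt1 ranged from -0.35 to 0.09 and did not pass.

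Of the 9 membrane proteins, Npc1, which exports cholesterol across the lysosomal membrane, fell in LPS vs Ctrl. Its normalized counts were 2443 and 2561 for Ctrl, 1323 and 1477 for LPS, 2644 and 2407 for Eff, and 1796 and 1918 for LPSEff. The fall was -0.84 ± 0.17 (adjusted p = 0.00867) in naïve Mϕ and -0.44 ± 0.17 in efferocytic Mϕ, where it passed with the block but not without it (adjusted p = 0.105 without and 0.0235 with it). The difference between both effects, the interaction, was 0.40 ± 0.24 and did not pass (adjusted p = 1.000). Npc1 and Npc2, partners in sterol export, thus had opposite signs in both stimulated comparisons.

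The major membrane glycoproteins behaved differently from each other. Lamp1 had 12626 and 12662 for Ctrl, 10383 and 10996 for LPS, 11388 and 12291 for Eff, and 12617 and 13016 for LPSEff and did not pass (-0.24 and 0.12). Lamp2, which also serves in chaperone-mediated autophagy, had 3527 and 4422 for Ctrl, 4757 and 5992 for LPS, 3203 and 4266 for Eff, and 5276 and 5722 for LPSEff, with stimulated above unstimulated samples in each context. Its rise of 0.44 ± 0.23 and 0.57 ± 0.23 passed with the block but not without it (adjusted p = 0.0286 and 0.00827, against 0.216 and 0.123 without). Cd68, a scavenger-receptor-like glycoprotein used as a Mϕ marker, had 1154 and 807 for Ctrl, 669 and 835 for LPS, 1056 and 1052 for Eff, and 884 and 1216 for LPSEff and overlapped between groups in both contrasts. The receptor Scarb2, which carries glucocerebrosidase to lysosomes, passed in LPS vs Ctrl with the block but not without it (0.46, adjusted p = 0.0175). The calcium channel gene Mcoln1 and the genes Cln3, Laptm5 and Cd63 stayed between -0.22 and 0.21 and did not pass, and reads of Cd63 may in part belong to its pseudogene Cd63-ps.

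**Figure D3:**
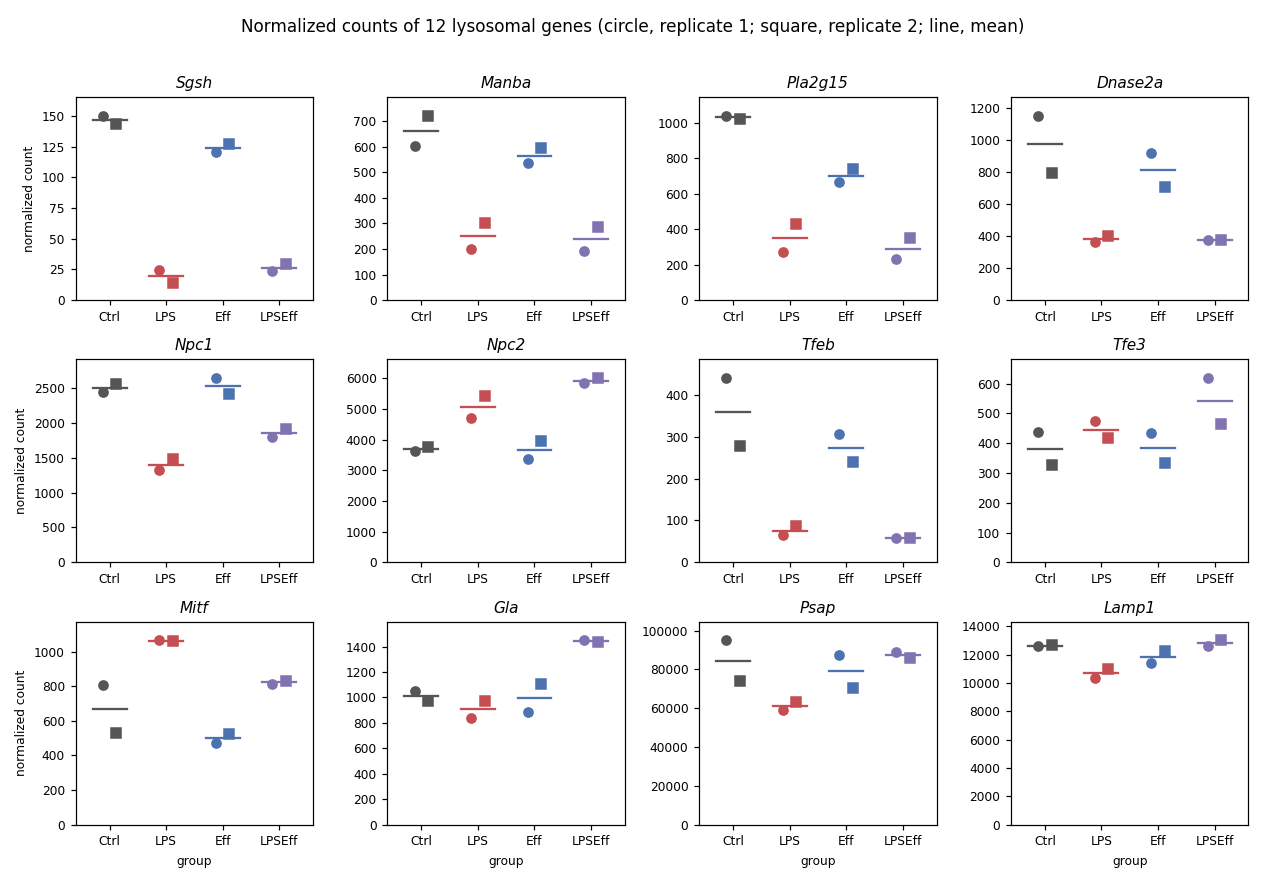
Normalized counts (y axis, from 0) of 12 lysosomal genes in the 4 groups, with circles for replicate 1, squares for replicate 2 and lines for the mean. Sgsh, Manba, Pla2g15, Dnase2a and Tfeb drop in LPS and LPSEff, Npc2 is higher in LPSEff than in Eff, and Gla lies highest in both LPSEff samples.

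The V-ATPase genes did not move together. Of 10, 1 passed in each context (lower each time), and their log2 fold changes ran from -1.47 to 0.97 in LPS vs Ctrl and from -1.47 to 0.80 in LPSEff vs Eff. Atp6v1c1, a V1 subunit that joins both sectors, had 1794 and 1830.3 for Ctrl, 1063 and 1182 for LPS, 1844 and 2089 for Eff, and 1477 and 1716 for LPSEff and passed in LPS vs Ctrl (-0.69 ± 0.17, adjusted p = 0.0229). Atp6v0a1, a proton-path subunit of V0, had 2689 and 2801 for Ctrl, 1252 and 2171 for LPS, 2887 and 2743 for Eff, and 1184 and 1533 for LPSEff and passed in LPSEff vs Eff (-1.06 ± 0.27, adjusted p = 0.0263). Both stimulated groups of Atp6v0a1 lay below both others, and in LPS vs Ctrl it passed with the block but not without it (-0.73, adjusted p = 0.0104). The call of Atp6v0a1 in LPSEff vs Eff was lost without any library of LPSEff or Eff (adjusted p 0.0504 to 0.155).

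The 2 isoforms of the V0 d subunit differed. Atp6v0d1, the ubiquitous isoform, had 1139 and 1181 for Ctrl, 1224 and 1268 for LPS, 1475 and 1194 for Eff, and 1186 and 1278 for LPSEff and log2 fold changes of 0.10 ± 0.17 and -0.11 ± 0.17, neither past the threshold. Atp6v0d2, the isoform known from osteoclasts and Mϕ, had 910.2 and 981 for Ctrl, 193 and 603 for LPS, 1024 and 1874 for Eff, and 319.8 and 775 for LPSEff. All 4 stimulated samples of Atp6v0d2 were below all 4 unstimulated ones, but its replicates lay far apart in 3 of 4 groups, and its log2 fold changes of -1.47 ± 0.58 and -1.47 ± 0.58 passed with the block but not without it (adjusted p = 0.107 and 0.117 without, 0.00168 and 0.00187 with it).

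In V1, the catalytic subunit Atp6v1a stayed near 0 (-0.07 and 0.09), while its partner in the catalytic ring, Atp6v1b2, was lower in both contexts and passed with the block but not without it (-0.53 and -0.43, adjusted p = 0.0175 and 0.0456). Atp6v1d, part of the central rotor, had 548 and 404 for Ctrl, 704 and 1206 for LPS, 436 and 452 for Eff, and 633 and 948 for LPSEff and was the member with the highest log2 fold change in both contexts (0.97 ± 0.31 and 0.80 ± 0.31). It passed with the block but not without it (adjusted p = 0.0536 and 0.110 without, 0.00867 and 0.0246 with it). The regulatory subunit Atp6v1h passed in LPSEff vs Eff with the block (0.43, adjusted p = 0.0403). The accessory gene Atp6ap1 and the proteolipid gene Atp6v0c did not pass, and reads of Atp6v0c may in part belong to its pseudogenes.

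**Figure D4:**
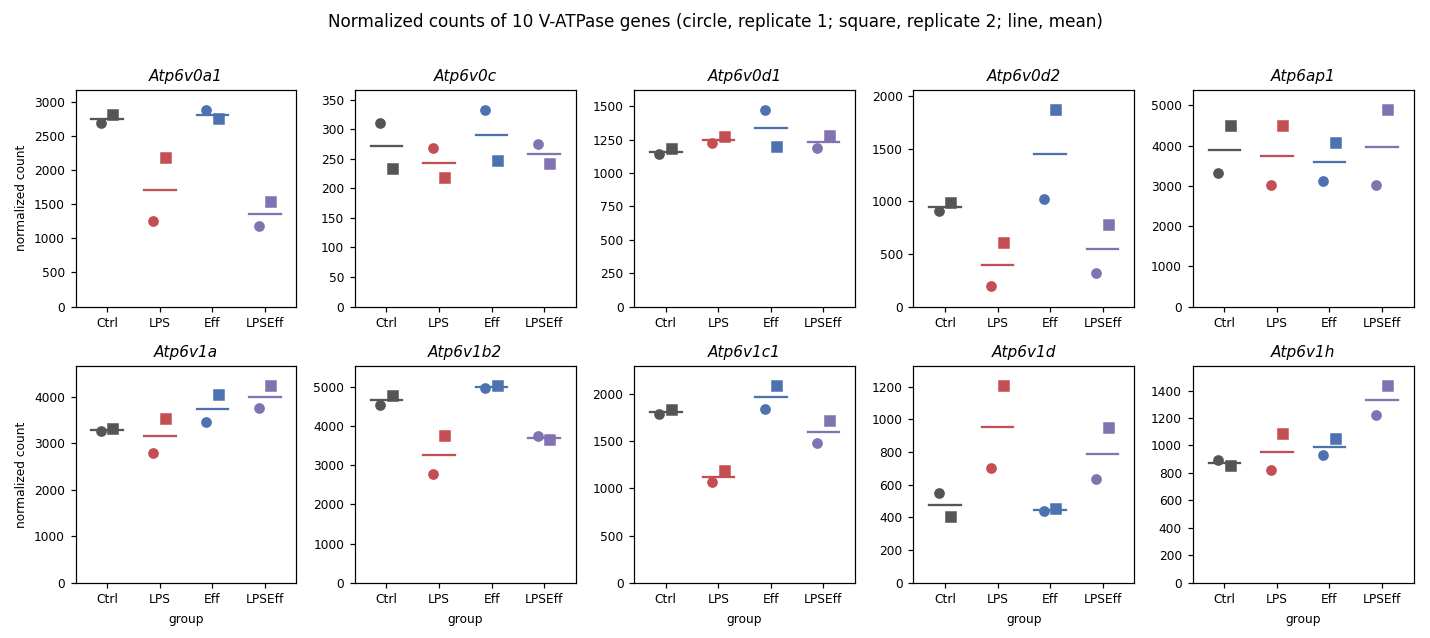
Normalized counts (y axis, from 0) of 10 V-ATPase genes in the 4 groups, with circles for replicate 1, squares for replicate 2 and lines for the mean. Atp6v0a1, Atp6v0d2, Atp6v1b2 and Atp6v1c1 are lower in both stimulated groups than in their unstimulated counterparts, Atp6v1d is higher, and Atp6v0d2 and Atp6ap1 differ most between replicate numbers.

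The 3 transcription factors went apart. Tfeb had 439.9 and 278 for Ctrl, 64.7 and 86.3 for LPS, 306 and 239.9 for Eff, and 58.6 and 57.1 for LPSEff, and was lower in both contexts, with a log2 fold change of -2.21 ± 0.29 (adjusted p = 0.00124) in naïve and -2.21 ± 0.29 (adjusted p = 0.00139) in efferocytic Mϕ. All 4 stimulated samples of Tfeb lay below all 4 others, and the gene lies at chr17:48047837-48103348 (plus strand). Mitf had 805 and 529.7 for Ctrl, 1066 and 1060.2 for LPS, 472 and 525 for Eff, and 814 and 833 for LPSEff, with stimulated above unstimulated samples in each context. Its log2 fold changes of 0.70 ± 0.22 and 0.72 ± 0.22 missed the threshold (adjusted p = 0.0508 and 0.0522) and passed with the block (0.00961 and 0.00909). Tfe3 had 436 and 328 for Ctrl, 475 and 416 for LPS, 433 and 335 for Eff, and 619 and 466 for LPSEff and passed only in LPSEff vs Eff with the block (0.50 ± 0.24, adjusted p = 0.0177). Per transcript length, Tfeb went from 153 in Ctrl to 32.2 in LPS, and Mitf from 135 to 214 normalized counts per kb.

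Members with and without CACGTG in their window are given side by side, as a description. In LPS vs Ctrl, the 11 members with the letters had a median log2 fold change of -0.07 (from -2.91 for Sgsh to 0.23 for Gaa) with 1 called, and the 32 without had -0.27 with 4 called. In LPSEff vs Eff, the medians were 0.09 with 1 called and 0.00 with 6 called. Of all tested genes, 24% were called in LPS vs Ctrl and 19.7% in LPSEff vs Eff. Npc1 and Atp6v1c1, which were called in LPS vs Ctrl, had no window and are in neither set. Members called without these letters included Manba, Pla2g15 and Dnase2a.

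For the effect of efferocytosis itself, Eff was compared with Ctrl. Here 0 of 49 members passed in limma (0.251% of all genes did). An unadjusted p under 0.05 was found for 0 members, and for 1000 of the 16309 tested genes. EdgeR, DESeq2 and the replicate block, with which 2.67% of all genes passed, gave 0 calls of members as well. The median was -0.09 (all genes, -0.01), 46 of 49 members stayed within 0.5 of 0, and 34 were below 0. All 10 glycosidases, all 4 sulfatases and all 8 lipid-handling members had values below 0, from -0.56 to -0.01, with 7 of the 8 lipid-handling members below 0 under equal totals, whereas 8 of 10 V-ATPase genes were above 0, up to 0.55 for Atp6v0d2. None of these differences was called. The groups did not overlap for 21 members (7 above and 14 below, 42.9%), against 34.1% of all genes (16.3% above and 17.8% below).

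By the size of their change, 6 members with no overlap between Eff and Ctrl are given. They were Pla2g15 (-0.56 ± 0.27), Atp6v0d2 (0.55 ± 0.58), Mitf (-0.39 ± 0.22), Mcoln1 (-0.37 ± 0.18), Tpp1 (-0.33 ± 0.19) and Gm2a (-0.32 ± 0.31), with adjusted p from 0.878 to 0.999. Mcoln1, the channel that releases calcium from lysosomes, had 404 and 356 for Ctrl, 353 and 344 for LPS, 273 and 313 for Eff, and 341 and 336 for LPSEff. Tpp1, a tripeptidyl peptidase, had 2289 and 2066 for Ctrl, 1687 and 1930.5 for LPS, 1773 and 1683 for Eff, and 1625 and 2094 for LPSEff, and Gm2a, the activator protein for ganglioside breakdown, had 1295 and 1469 for Ctrl, 830.3 and 1525 for LPS, 969 and 1266 for Eff, and 949 and 1367 for LPSEff. For Mcoln1, both Eff samples lay below all 6 others, while those of Tpp1 and Gm2a lay within the range of the stimulated samples. Beside these values, 8 of the 16 fibroblast markers tested rose in the same contrast, among them Col1a1 by 4.47 (log2), and their part in the members' values was not tested.

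In LPSEff vs LPS, 0 of 49 members passed in limma (0.773% of all genes did). An unadjusted p under 0.05 was found for 4 members, and for 1679 of the 16309 tested genes. EdgeR and DESeq2 without a block also gave 0. With the replicate block, 3 passed (6.12%, with 6.97% of all genes, 4.32% higher and 2.65% lower), of which Gla and Atp6v1c1 were higher and Ids was lower. The median was 0.04 (all genes, 0.00), with 30 of 49 above 0. The groups did not overlap for 16 members (32.7%, 12 above and 4 below), against 36.3% of all genes (19.3% above and 17% below). Without LPS replicate 1 the median was -0.07, and without LPSEff replicate 1 it was 0.26.

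Gla, the enzyme missing in Fabry disease, had normalized counts of 1049 and 976 for Ctrl, 839 and 973 for LPS, 883 and 1105 for Eff, and 1449.6 and 1439 for LPSEff. Both LPSEff samples of Gla lay above all 6 others, and the log2 fold change over LPS was 0.68 ± 0.18 (adjusted p = 0.204 without and 0.0216 with the block). The other members with no overlap and the largest differences were all higher in LPSEff, namely Psap (0.51 ± 0.28), Atp6v1c1 (0.51 ± 0.17, adjusted p = 0.0402 with the block), Atp6v1h (0.49 ± 0.20), Cd68 (0.47 ± 0.24) and Cd63 (0.46 ± 0.23). Their adjusted p without the block ran from 0.344 to 0.617. Atp6v1h had 891 and 847 for Ctrl, 823 and 1086 for LPS, 929.7 and 1047 for Eff, and 1223 and 1435 for LPSEff, and Cd63, a tetraspanin of late endosomes, had 1839 and 1918 for Ctrl, 1393 and 1858 for LPS, 1927 and 2549 for Eff, and 1939 and 2545 for LPSEff. Ids, with the lowest value, had 228 and 349 for Ctrl, 228 and 583 for LPS, 143 and 274 for Eff, and 146 and 284 for LPSEff, so that the samples of LPS and LPSEff overlap and the call of -0.83 rests on the block (adjusted p = 0.0264, against 0.674 without). In this contrast 7 fibroblast markers rose, among them Col1a1 by 4.43 (log2), and their part in the members' values was not tested.

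Whether the LPS/IFNγ effect differed between naïve and efferocytic Mϕ was tested as an interaction, the effect in LPSEff vs Eff minus that in LPS vs Ctrl. In limma 0 members and 0 genes passed (0%), with and without the block, and edgeR and DESeq2 also gave 0 members. In limma without the block, 1 member, Gla, had an unadjusted p under 0.05, as did 311 of the 16309 tested genes. The median of the members was 0.16 (all genes, 0.01), with 39 of 49 above 0. Within replicate number 1 the median was 0.32 with 38 above 0, and within number 2 it was 0.14 with 36 above 0. It was 0.01 without LPS replicate 1, 0.35 without LPS replicate 2, 0.36 without LPSEff replicate 1, 0.08 without LPSEff replicate 2, 0.24 without Ctrl replicate 1 and 0.25 without Eff replicate 2, so that its size rests on single libraries of every group. The highest values were 0.71 ± 0.45 for Sgsh, 0.71 ± 0.26 for Gla and 0.61 ± 0.40 for Psap.

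**Figure D5:**
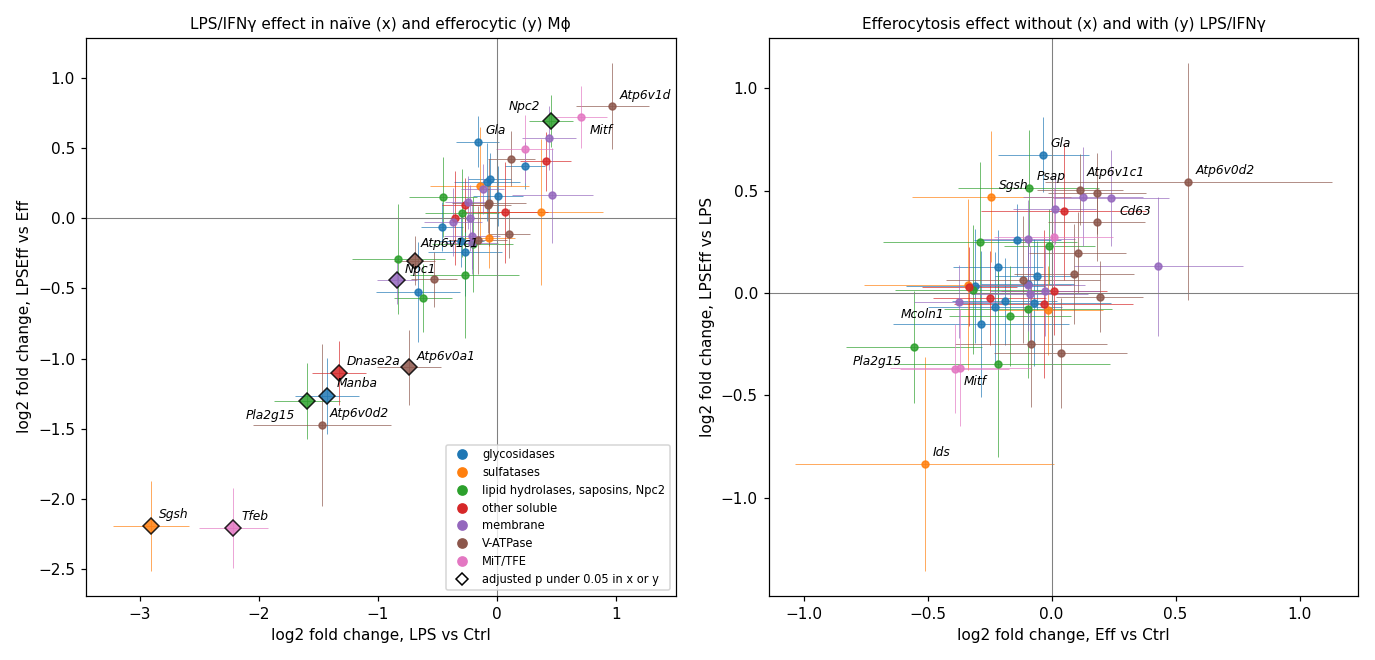
Log2 fold changes of the 49 lysosomal genes with their SE, for LPS/IFNγ in naïve (x) and efferocytic (y) Mϕ (left) and for efferocytosis without (x) and with (y) LPS/IFNγ (right). Diamonds mark genes with an adjusted p under 0.05 in x or y (limma), which occur in the left panel only, where Sgsh and Tfeb lie farthest from 0.

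Across the members, values also differed by replicate number. In a comparison of replicate 2 with replicate 1 over the 4 groups, 19 members passed (16 higher and 3 lower in replicate 2), with 23.5% of all genes (15.6% higher and 7.84% lower). The largest differences were Atp6v0d2 (0.97 ± 0.20) and Ids (0.96 ± 0.13), and Galc, Arsb, Lipa, Lgmn, Gusb and Scarb2 were higher in replicate 2 by 0.60 to 0.76 on the log2 scale, each in 4 of 4 groups. Lower in replicate 2 were Tfe3, Atp6v0c and Cln3 (-0.34, -0.33 and -0.30). Replicates of a group have no order, and what the number stands for is not given in the sources used here.

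Other genes of the lysosome, from lists of textbook members, moved in both directions as well. Their counts are to be read beside the shares of all genes called, which were 24% in LPS vs Ctrl (12.4% higher and 11.6% lower) and 19.7% in LPSEff vs Eff (10.7% higher and 8.95% lower). Of 12 tested further V-ATPase subunits and assembly factors, 1 rose and 1 fell in LPS vs Ctrl, and 2 rose and 1 fell in LPSEff vs Eff. Atp6v1e1, a V1 stalk subunit, was higher by 0.87 and 0.86, and the assembly factor Ccdc115 was lower, at -1.60 and -1.37 (log2). Of 36 further hydrolases and cofactors, 3 rose and 2 fell in LPS vs Ctrl, and 3 rose and 1 fell in LPSEff vs Eff. Their largest called changes in LPS vs Ctrl were Smpdl3b (1.94), a sphingomyelinase-like phosphodiesterase, and Rnaset2a (1.86), and in LPSEff vs Eff they were Rnaset2b (2.58, at few reads) and Smpdl3b (1.91), where Rnaset2a and Rnaset2b are near-identical copies whose split is uncertain.

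Of 28 tested lysosomal transporters and channels outside the 49, 3 rose and 10 fell in LPS vs Ctrl, and 3 rose and 6 fell in LPSEff vs Eff. Mcoln3, a relative of Mcoln1, was at -2.32 and -2.31, the cation channel gene Tpcn1 at -2.01 in LPS vs Ctrl, and the peptide and histidine transporter gene Slc15a3 at 2.47 in LPSEff vs Eff. Of 18 genes for mannose 6-phosphate tagging and sorting, 2 rose and 3 fell in each context. The largest called changes were Cln8 (-1.23) and the receptor M6pr (1.14) in LPS vs Ctrl, and Cln6 (-1.52) and M6pr (1.04) in LPSEff vs Eff. Under equal totals, Smpdl3b, Slc15a3, Rnaset2b and M6pr were still called higher where given above, while Rnaset2a in LPS vs Ctrl (1.47, adjusted p = 0.0788) and Atp6v1e1 in both contrasts (0.47 and 0.41, adjusted p = 0.0695 and 0.104) were not. None of the genes of these 4 lists passed in Eff vs Ctrl, LPSEff vs LPS or the interaction in limma without the block. With the block, 1 hydrolase or cofactor was lower in Eff vs Ctrl (2.67% of all genes passed). In LPSEff vs LPS (6.97% of all genes), 1 V-ATPase gene, 2 hydrolases or cofactors, 2 membrane genes and 1 sorting gene were then higher. There 1 hydrolase or cofactor was lower.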

How the data were processed

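Total RNA-seq was analysed for 8 samples in 4 groups (n = 2 each). By the methods and the submitters' processing notes, rRNA-depleted libraries were adapter-trimmed (cutadapt), cleared of rRNA (Bowtie2), placed on mm39 (STAR) and counted (HTSeq, default settings, which count by strand and drop reads with several positions). Versions and the annotation release are not given in the sources used here. The signal that the authors deposited is a normalized count, which is the read count of a gene over 1 size factor per sample. All values were whole multiples of 1 step per sample (100%, tolerance 0.001), which gave the reads. Floors of 3 reads cover counting error only.

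Genes with a mean of at least 10 (16309) entered limma 3.58.1 (R 4.3.3, trend) as log2(normalized count + 1), all 4 groups in 1 fit, two-sided. Benjamini-Hochberg adjustment covered all tested genes, with calls under 0.05. An exact permutation test of 2 against 2 samples cannot reach this. Same-numbered samples deviated together in all 6 pairs of groups (r from 0.404 to 0.595 over the tested genes), though no source says what the number marks, and an alternative fit holds it as a block. For the members, its values stand beside the main ones where calls differ. Levels per kb use the length of the Ensembl canonical transcript, and positions are from GENCODE on GRCm39. The tests were checked on simulated counts, where limma made 8 false calls among 130, and 14 among 138 with the block.

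The 49 members, the further gene lists and the markers were chosen with earlier results of these data known. Genes given in full are called members with the largest changes (up to 6 per direction and contrast), in contrasts with fewer than 6 calls the largest changes among members with a mean of at least 100 and groups that do not overlap, and 12 members by role (Tfeb, Tfe3, Mitf, Lamp1, Lamp2, Cd68, Psap, Grn, Npc1, Npc2, Atp6v0d1 and Atp6v0d2). The 2 largest called changes per contrast are given from each further list. Other members were named after their values were seen. Alternatives were other pseudocounts (0.5, 5), other minimum means (above 0, at least 50), the block, equal totals, edgeR 4.0.16 and DESeq2 1.42.0 on the recovered reads (3991 and 3954 genes called in LPS vs Ctrl), a fit of the compared groups alone, and leaving out each sample. The block in edgeR, in DESeq2 and with equal totals was added after seeing the data.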

Additional observations from a re-analysis of the deposited data

Results flagged for a closer look

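In 5 members the samples of a group lay on opposite sides under the same treatment in the 2 contexts. How many of all genes do so was not counted, so that this number is not a result about the members. In a single contrast, groups did not overlap for 34.1% to 59.9% of all genes. For LPS/IFNγ, both stimulated samples were below in naïve and above in efferocytic Mϕ for Gla (-0.16 and 0.55), Lamp1 (-0.24 and 0.12) and Mcoln1 (-0.12 and 0.21). This holds for the deposited scaling. Under equal totals, Lamp1 (-0.64 and -0.34) and Mcoln1 (-0.52 and -0.24) were below 0 in both contexts, while Gla kept opposite signs (-0.56 and 0.10). For efferocytosis, both Eff samples were below Ctrl and both LPSEff samples above LPS for Hexa (-0.14 and 0.26), Glb1 (-0.22 and 0.13) and again Lamp1 (-0.10 and 0.26). The signs of these log2 fold changes were the same under equal totals. The difference between the effects was tested as the interaction in limma and came to 0.71 ± 0.26 (SE) for Gla, 0.40 ± 0.25 for Hexa, 0.36 ± 0.27 for Lamp1, 0.35 ± 0.26 for Glb1 and 0.33 ± 0.25 for Mcoln1 on the log2 scale. None passed after adjustment (adjusted p = 1.00 for each, and 0.535 to 0.853 with the replicate block). Gla alone had an unadjusted limma p under 0.05 (0.0251), which 311 of the 16309 tested genes had. The causes were not tested.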

How the results depend on the processing

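The members called in LPS vs Ctrl (7) and LPSEff vs Eff (7) changed by over 1.5 times under some settings. The replicate block gave 19 and 19 (all genes, 6717 and 6033 calls, against 3910 and 3213), with edgeR 19 and 18 and with DESeq2 19 and 16. Equal totals gave 21 and 14 (all genes, 5737 and 5578 calls), and 35 and 28 with the block (all genes, 8243 and 8233). DESeq2 without a block gave 11 in LPSEff vs Eff (3519 genes). In LPSEff vs LPS (0), the block gave 3, also with edgeR and with equal totals, and DESeq2 with the block gave 4. Pairing by the replicate number through the block changed no other count of members. Leaving out single samples gave 4 to 10 in LPS vs Ctrl and 2 to 8 in LPSEff vs Eff. Eff vs Ctrl and the interaction stayed at 0 under all settings run. Over all genes, the calls in Eff vs Ctrl (41) were 79 with genes of a mean above 0, 20 with a mean of at least 50, 9 with the compared groups alone, 0 without Eff replicate 2, 4 and 8 without Ctrl replicates 1 and 2, 9 without either LPSEff replicate, 14 with edgeR, 204 with DESeq2 and 411 to 519 with a block. In LPSEff vs LPS (126) they were 66 with the compared groups alone, 368 with DESeq2, 1082 to 1233 with a block, and 0 without LPSEff replicate 1. Equal totals gave 5578 in LPSEff vs Eff, leaving out a sample gave as few as 2076 in LPS vs Ctrl and 1567 in LPSEff vs Eff, and DESeq2 with the block called 29 genes in the interaction, none of them members. The causes were not tested.

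Of the 25 named results, none changed direction in any setting. A call was lost in 25 of all their refits, 21 of them with a sample left out, and 9 refits with a block brought a call of Gla, Atp6v1c1 or Psap in LPSEff vs LPS. The 4 losses with all samples kept were all of Npc2 in LPSEff vs Eff, under equal totals (0.24) with and without the block, with genes of a mean above 0, and with the compared groups alone, and Npc2 also lost its call in 6 of 8 refits with a sample left out. Atp6v1c1 in LPS vs Ctrl, outside these results, lost its call in 5 refits. With 2 samples a group and a depth as low as 3481288 reads (Ctrl replicate 1), changes of 2-fold and smaller could have been missed. In the simulated counts, limma found 26% of 2-fold changes. These counts had 1 spread setting for all genes, no difference by replicate number and 200 changed genes among 16298. The share may thus differ for the real samples.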
